A study of Mus musculus with 9 samples.

Results

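The 8 genes that encode cell surface integrin chains and chains of laminin-332 were followed through 9 RNA-seq libraries of 2 mouse epithelial cell lines. They were taken by name, as Itga2, Itga3, Itga6, Itgav, Itgb4, Itgb6, Lama3 and Lamb3, and all 8 were found among the 23366 gene entries of the deposited count tables. The line mSGc grew out of submandibular salivary gland epithelium of 12-week-old male C57BL/6 mice by spontaneous immortalization. It was sequenced as 1 library at each of P2, P4, P10 and P25 in progenitor medium and as 1 library at each of P10 and P25 in differentiating medium, where P is the passage number. The line IMOK, immortalised mouse oral keratinocytes of C57BL/6 origin, was sequenced as 3 numbered libraries grown in IMOK media. All cells were unmodified cultures. The study describes the mSGc as monolayers on plastic that arose from cell clusters over repeated passage. It does not state by which passage the mSGc were immortal or had lost the cluster form. Nothing in the labels says that the IMOK libraries came from separate cultures. The p-values thus measure the spread between these libraries, which may be technical between the IMOK libraries. No mSGc condition has a second library. Where mSGc libraries of different passage or medium are set together against IMOK, those differences enter that spread. Line, medium and experiment cannot be told apart in any comparison of mSGc with IMOK.

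Integrins are receptors made of 1 alpha and 1 beta chain that tie a cell to its matrix. In the basal layer of stratified and glandular epithelia, alpha6 (Itga6) pairs with beta4 (Itgb4) in hemidesmosomes, which anchor keratin filaments to the basement membrane, while alpha3 (Itga3) pairs with beta1 (Itgb1) at focal contacts. Both bind laminin-332, a trimer that basal epithelial cells secrete and that holds the alpha3 (Lama3) and beta3 (Lamb3) chains. Alpha2 (Itga2) pairs with beta1 as a collagen receptor, and alphav (Itgav) pairs with beta6 (Itgb6), an epithelial chain, or with beta8 (Itgb8) to bind and activate latent TGF-beta.

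Total counts ran from 6237884 to 17089965 reads in mSGc and from 16848411 to 18444963 in IMOK. The labelled epithelial identity was checked against markers. Basal epithelial markers (Krt5, Krt14, Krt15, Krt17, Trp63 and Sfn) summed to between 12559 and 25580 TPM in mSGc and between 10284 and 11438 TPM in IMOK, where TPM is a level corrected for gene length and library size. All 6 luminal markers also reached 1 TPM in both lines, immune markers stayed at or below 0.523 TPM in sum, and acinar markers of the secretory salivary cell summed to only 14.1 to 130 TPM in mSGc against 213 to 257 TPM in IMOK. A pair of libraries stood apart from the rest of their line. Myoepithelial markers (Acta2, Myh11, Cnn1, Mylk, Tagln and Oxtr) summed to 770 TPM in mSGc at P2 against 8.05 to 125 TPM in the other mSGc libraries, and to 963 TPM in IMOK 1 against 10.2 and 15.5 TPM in IMOK 2 and 3. Of these 6 genes, only 4 reached 1 TPM in any mSGc library and only 3 in any IMOK library. Oxtr was at or under 3 counts in every library. Fibroblast markers were highest in mSGc at P2, at 23.2 TPM in sum. In bulk RNA, fewer cells of a type and less RNA per cell cannot be told apart.

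The 250 bases before the start of the genes are shown for Itgb6 and Itgb4, the members that passed the test between the lines, and for Lamb3, which was lower in every mSGc library than in IMOK. They were read 5′ to 3′ on the gene's strand from mm9, the build of the count tables. Capitals mark matches to 4 short motifs on either strand, namely TGANTCA (AP-1), GGAATG (TEAD), GGGCGG (Sp1) and CACCTG (an E-box). The Itgb6 window lies at chr2:60560701-60560950 on the minus strand, that of Itgb4 at chr11:115835773-115836022 and that of Lamb3 at chr1:195127901-195128150, both on the plus strand.
Itgb6: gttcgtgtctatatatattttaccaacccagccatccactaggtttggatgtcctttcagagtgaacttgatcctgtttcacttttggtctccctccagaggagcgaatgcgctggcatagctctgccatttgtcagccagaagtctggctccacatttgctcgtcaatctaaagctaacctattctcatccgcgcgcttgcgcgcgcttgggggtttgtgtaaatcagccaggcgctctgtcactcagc
Itgb4: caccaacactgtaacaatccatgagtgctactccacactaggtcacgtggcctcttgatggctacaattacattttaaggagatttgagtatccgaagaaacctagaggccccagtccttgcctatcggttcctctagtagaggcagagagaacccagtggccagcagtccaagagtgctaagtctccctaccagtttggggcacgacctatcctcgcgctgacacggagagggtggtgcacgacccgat
Lamb3: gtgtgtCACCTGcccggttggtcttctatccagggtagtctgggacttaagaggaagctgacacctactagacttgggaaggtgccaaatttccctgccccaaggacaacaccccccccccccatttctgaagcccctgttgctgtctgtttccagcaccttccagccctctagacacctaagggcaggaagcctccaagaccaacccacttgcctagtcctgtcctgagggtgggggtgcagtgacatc
The windows of Itgb6 and Itgb4 held no match to any of the 4 motifs. Lamb3 held 1 E-box near the far end of its window. Over the 7 windows examined, GGGCGG was found before 3 genes (Itga2, Itga3 and Lama3), the E-box before 2 (Itga3 and Lamb3) and the AP-1 and TEAD letters before 0. Among 23250 gene windows of the same length, 40.9% held GGGCGG, 16.9% the E-box, 11.7% the TEAD letters and 6.20% the AP-1 letters. Base composition also differed between the windows, with 50.4% G and C for Itgb6 and 52.8% for Itgb4 against 57.2% for Lamb3 and 70.0% for Lama3, beside a median of 54.8% over all genes. A match is a description of these letters and not of binding.

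Of the 8 genes, 7 were expressed well above the depth limit in both lines. They ranged from 184 reads, for Itgb6 in mSGc at P10 in progenitor medium, to 16138 reads, for Itga3 in mSGc at P25 in progenitor medium. In mSGc the mean levels ranked Itga3 first at 283 ± 60.6 TPM (SD, n = 6), then Itgb4 at 246 ± 38.1, Lamb3 at 134 ± 20.9, Itga6 at 122 ± 38.5, Lama3 at 48.7 ± 13.5, Itgav at 46.8 ± 21.8, Itgb6 at 16.0 ± 8.03 and Itga2 at 0.561 ± 0.491 TPM. The neighbours Itga3 and Itgb4, Lamb3 and Itga6, Lama3 and Itgav, and Itgav and Itgb6 overlapped in their ranges, so their order is not firm, although Itgav exceeded Itgb6 in 6 of 6 libraries. In IMOK the mean levels ranked Lamb3 first at 277 ± 156 TPM (SD, n = 3), then Itga3 at 273 ± 29.7, Itga6 at 213 ± 55.2, Itgb4 at 148 ± 86.8, Itgav at 51.9 ± 3.42, Lama3 at 45.0 ± 16.2, Itgb6 at 5.65 ± 1.44 and Itga2 at 1.14 ± 1.08 TPM. Lamb3 and Itga3, Itga3 and Itga6, Itga6 and Itgb4, and Itgav and Lama3 overlapped in their ranges, and the other neighbours did not. Itgb4 thus held the second place in mSGc and the fourth in IMOK. Itga3 lay above 97.2% of the genes with a count in mSGc and above 96.8% in IMOK, whereas Itgb6 lay above 58.8% and 41.4%.

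**Figure D1:**
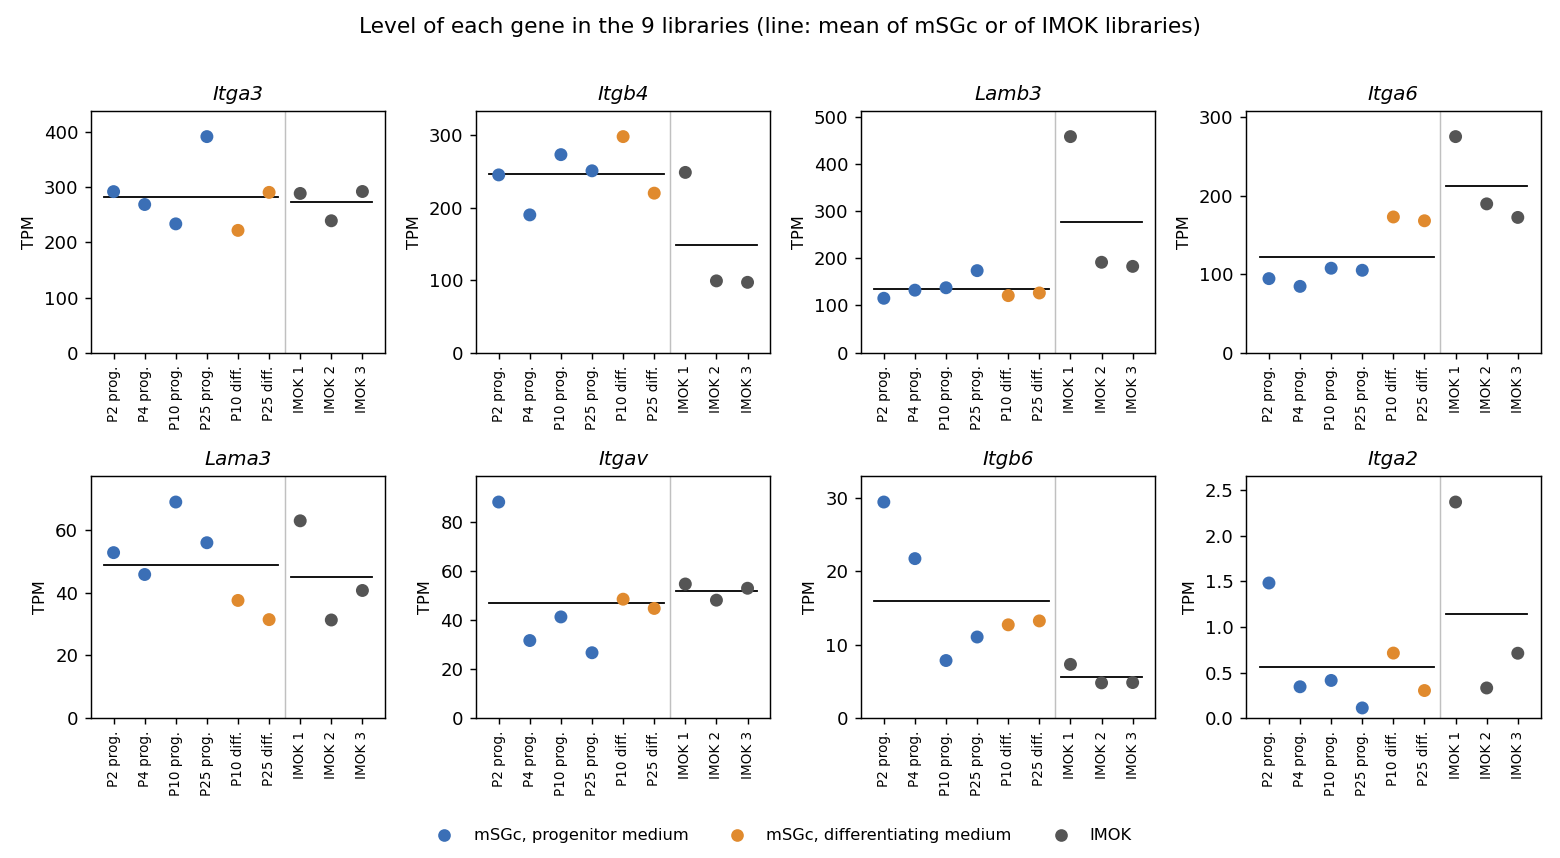
Level in TPM (vertical axis, linear from 0, own scale for each gene) of the 8 genes in each library (horizontal axis), 1 point per library and a line at the mean of each line. Itgb6 was above every IMOK library in 6 of 6 mSGc libraries, Lamb3 was below all of them in 6 of 6, and IMOK 1 stood above IMOK 2 and 3 for Itgb4 (248 against 98.9 and 96.9 TPM) and Lamb3 (458 against 192 and 183 TPM).

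Setting all 6 mSGc libraries against IMOK asked how the salivary line differs from an epithelial line of another oral tissue. Of the 8 genes, 2 passed at an adjusted p under 0.05 in edgeR's quasi-likelihood test, Itgb4 and Itgb6, both higher in mSGc. Over the 12853 genes tested, 14.9% passed (6.59% higher and 8.31% lower in mSGc). The 4 alpha chains and the 2 laminin chains did not pass in this fit, but that is no firm split by chain class. With medium and passage in the fit, Itgb4 did not pass (adjusted p = 0.0576). The alpha chain Itga6 then passed as lower in mSGc (adjusted p = 0.0315). The median log2 fold change of the 8 genes was 0.17 against 0.00 over all genes tested. Itgb4 and Itgb6 are also in the study's list of genes enriched in P10 mSGc. That list compared the cells with a fibroblast line and a B lymphocyte line as well as IMOK, so it is not a comparison with IMOK alone. It was chosen partly on these libraries and is not independent evidence of their direction.

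Itgb6 stood at 29.4 TPM at P2, 21.7 at P4, 7.84 at P10 and 11.04 at P25 in progenitor medium, at 12.7 and 13.2 TPM at P10 and P25 in differentiating medium, and at 7.31, 4.797 and 4.84 TPM in IMOK 1, 2 and 3. The lines did not overlap, but the lowest mSGc library lay close to IMOK 1, and the earliest passages were the highest. The fitted difference was 3.31-fold, a log2 fold change of 1.73 ± 0.40 (SE, adjusted p = 0.0184). Itgb6 was the only one of the 8 genes to be higher in every mSGc library in TPM, a pattern shared by 5.23% of the genes tested. The call was lost when IMOK 2 was left out (log2 fold change 1.63, adjusted p = 0.0889) or IMOK 3 (1.67, adjusted p = 0.0730).

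Itgb4 was at 245, 190, 273 and 251 TPM in progenitor medium at P2, P4, P10 and P25 and at 298 and 220 TPM in differentiating medium at P10 and P25. In IMOK it was at 248, 98.9 and 96.9 TPM. IMOK 1 thus lay inside the mSGc range, and the other IMOK libraries lay below all of it. The fitted difference was 1.98-fold, a log2 fold change of 0.99 ± 0.29 (SE, adjusted p = 0.0448). Without IMOK 1, in which myoepithelial markers were high in sum, the log2 fold change was 1.48 ± 0.21 (adjusted p = 0.00360). Without both IMOK 1 and mSGc at P2 it was 1.51 ± 0.22 (adjusted p = 0.00537). Basal epithelial markers, of which Krt15 and Krt14 passed as higher in mSGc (2 of 6), were also higher in sum in every mSGc library. None of the 6 passed as lower, but Trp63 had a negative log2 fold change (-0.44 ± 0.38, adjusted p = 0.473). It lay below every IMOK library in 4 of 6 mSGc libraries. The part of either marker list in the Itgb4 difference was not tested. The call was lost in 8 of the 9 fits that left out 1 library, the exception being the one without IMOK 1, and the log2 fold change was smallest without IMOK 2 (0.78, adjusted p = 0.192). A stretch of 55 exonic bases is shared with Galk1, so a few reads could belong to either gene.

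Lamb3 went the other way in level without passing the test. It was at 115, 132, 138 and 174 TPM in progenitor medium from P2 to P25, at 121 and 127 TPM in differentiating medium, and at 458, 192 and 183 TPM in IMOK. All mSGc libraries lay below all IMOK libraries, as they did for 17.1% of the genes tested. IMOK 1, with its high sum of myoepithelial markers, was far above the other IMOK libraries. The fitted log2 fold change was -0.77 ± 0.29 (SE, 1.70-fold lower, adjusted p = 0.101), and it was -0.30 ± 0.24 (adjusted p = 0.432) without IMOK 1. The part of those markers was not tested here either. Its partner in the trimer, Lama3, lay at 31.4, 49.3 and 68.9 TPM (lowest, median and highest) in mSGc and at 62.9, 31.3 and 40.7 TPM in IMOK (log2 fold change 0.37 ± 0.29, adjusted p = 0.442).

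Among the alpha chains, Itga6 was at 94.5, 84.6, 108 and 105 TPM in progenitor medium from P2 to P25, at 173 and 168 TPM in differentiating medium, and at 276, 190 and 173 TPM in IMOK. Only mSGc at P10 in differentiating medium reached the IMOK range. The log2 fold change was -0.57 ± 0.24 (adjusted p = 0.141), and it passed the test when medium and passage entered the fit (-0.62, adjusted p = 0.0315), where Itgb4 no longer did (0.98, adjusted p = 0.0576). Itga3, the most abundant alpha chain, spanned 222 to 392 TPM in mSGc and 239 to 292 TPM in IMOK (log2 fold change 0.29 ± 0.26, adjusted p = 0.485). Itgav spanned 26.7 to 88.2 TPM in mSGc, with the highest value at P2, and 48.1 to 54.7 TPM in IMOK. Its log2 fold change of 0.04 ± 0.29 (adjusted p = 0.947) changed sign without normalization factors, at -0.06. Itga2 was close to the depth limit, at 4 to 33 reads in mSGc and 85, 12 and 24 reads in IMOK (log2 fold change -0.80 ± 0.74, adjusted p = 0.513), and the difference turned to 0.19 without IMOK 1.

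**Figure D2:**
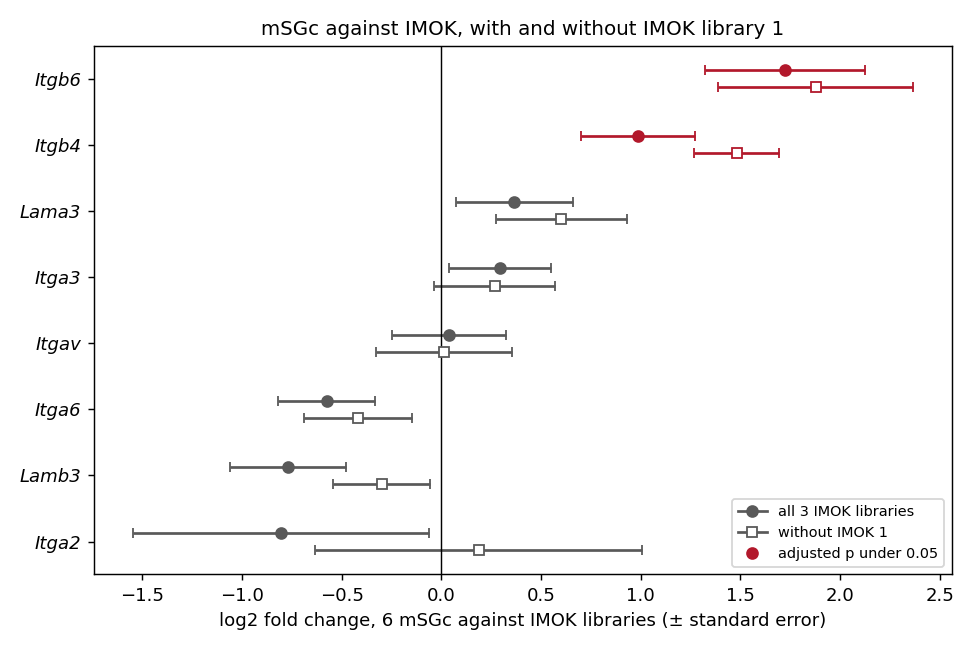
Fitted log2 fold change (horizontal axis) of mSGc against IMOK for each gene, with bars of 1 standard error; circles use all 3 IMOK libraries, open squares leave out IMOK 1, and red marks an adjusted p under 0.05. Itgb6 and Itgb4 are red in both fits, Itgb4 moves from 0.99 to 1.48, Lamb3 from -0.77 to -0.30 and Itga2 from -0.80 to 0.19.

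The study set the P10 cultures beside IMOK, so the same test was run on the 2 P10 libraries and the 3 IMOK libraries. The study's text gives IMOK the same passage number as P10 mSGc, while the labels call the IMOK passage early and that of P10 mSGc mid, so a match in passage is uncertain. None of the 8 genes passed in edgeR, beside 4.21% of 12998 genes tested. The unadjusted p was under 0.05 for 2 of the 8, beside 3240 of the 12998 genes. Under DESeq2 1 was called (Itgb6), and under limma's voom 0. Itgb6 had a log2 fold change of 1.04 ± 0.30 (adjusted p = 0.111) and Itgb4 of 1.16 ± 0.40 (adjusted p = 0.154), and both passed when IMOK 1 was left out (Itgb6 1.18, adjusted p = 0.0353; Itgb4 1.64, adjusted p = 0.00888). This comparison shares its libraries with the broader one and is no second test of it.

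Genes whose products work as partners were compared by the ratio of their TPM within each library. Itga6 to Itgb4 was 0.386 to 0.446 in the 4 progenitor libraries, 0.582 and 0.766 in differentiating medium, and 1.11, 1.92 and 1.78 in IMOK. In TPM the transcript of the alpha chain thus exceeded that of the beta chain in every IMOK library and in no mSGc library. Whether a ratio lies above 1 depends on the gene models counted, which were the same for both lines. The counted Itga6 model spans chr2:71625140-71694815, less than its GENCODE locus at chr2:71583673-71696473. Lama3 to Lamb3 ran from 0.248 to 0.501 in mSGc and from 0.137 to 0.223 in IMOK. Itgav to Itgb6 ran from 1.46 to 5.27 in mSGc and from 7.48 to 10.9 in IMOK. Itgav transcripts thus exceeded those of Itgb6 in all 9 libraries, and other partners of alphav, such as beta8, are outside this ratio. None of these 3 ratios overlapped between the lines. The ratios Itga3 to Itga6, Itgb1 to Itgb4 and Itgb6 to Itgb5 were also calculated, and all of them overlapped. Over single genes, the lines did not overlap in TPM for 5.23% (higher in mSGc) and 17.1% (lower in mSGc) of those tested. How often the ratio of other gene pairs separates the lines was not determined. All ratios are given as a description, with no test.

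**Figure D3:**
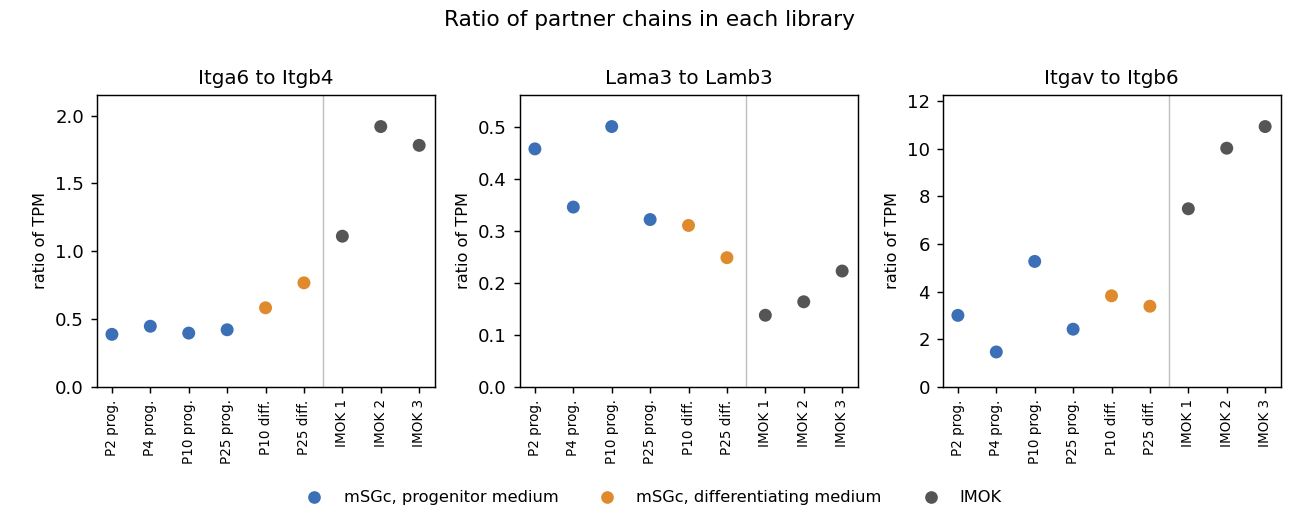
Ratio of the TPM of partner chains (vertical axis, linear from 0) in each library (horizontal axis), 1 point per library. In all 3 panels the mSGc and IMOK points do not overlap, and how often other gene pairs separate the lines was not determined. Itga6 to Itgb4 stays at or below 0.766 in mSGc and at or above 1.11 in IMOK.

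Within their chain classes the 8 genes had unequal weight. The 4 alpha chains Itga2, Itga3, Itga6 and Itgav together made up 92.2% to 98.04% of the summed TPM of 18 integrin alpha genes in mSGc and 95.8% to 98.3% in IMOK. Itga3 alone held 48.6% to 72.6% in mSGc and 44.5% to 55.4% in IMOK. Among 9 beta genes, Itgb1, the common partner of many alpha chains, held 49.7% to 69.4% in mSGc and 59.4% to 86.7% in IMOK. Itgb4 held 21.1%, 26.9%, 32.8% and 38.8% at P2, P4, P10 and P25 in progenitor medium, 33.2% and 32.0% in differentiating medium, and 22.1%, 11.4% and 9.72% in IMOK. Itgb6 held 0.942% to 3.07% in mSGc and 0.486% to 0.650% in IMOK. Among the laminin chains, Lamb3 held 14.9% to 25.6% in mSGc and 30.3% to 34.5% in IMOK, without overlap.

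**Figure D4:**
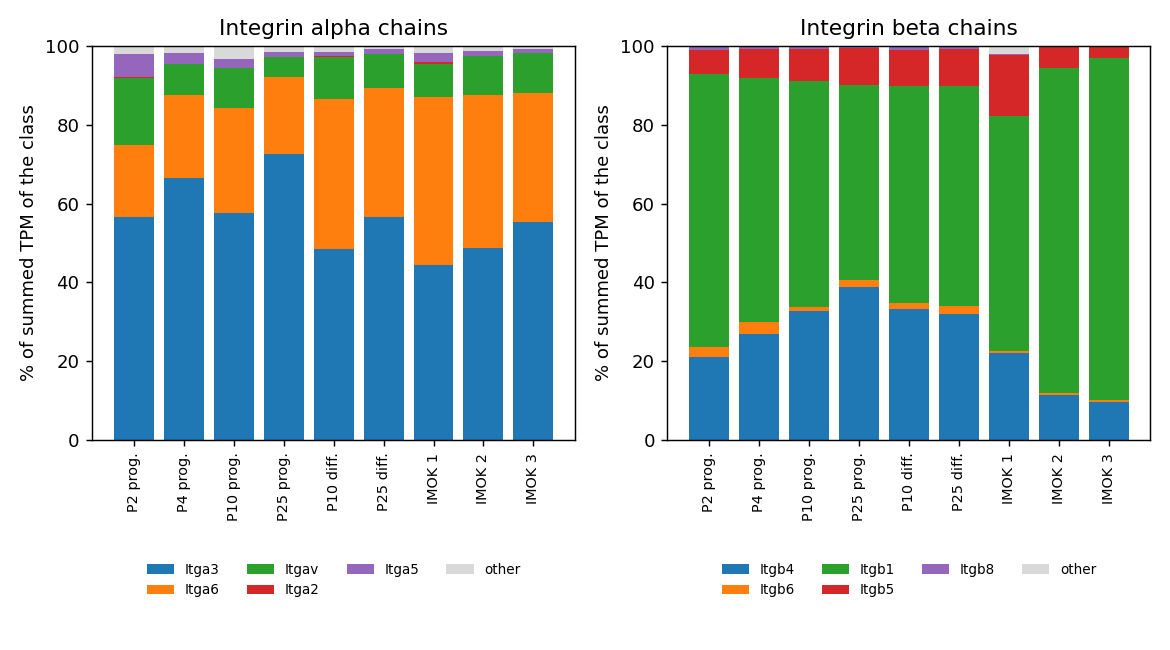
Share of each chain (stacked bars, % of the summed TPM of its class, from 0 to 100) in each library, for integrin alpha and integrin beta genes. Itga3 is the largest alpha share in every library, and the Itgb4 share reaches 38.8% in mSGc and 22.1% in IMOK.

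The other genes of the same families were counted in the comparison of all mSGc with IMOK. Of the alpha genes 12 of 18 were tested and 0 passed, with 3 at an unadjusted p under 0.05. Over all 12853 genes tested, 3915 had an unadjusted p under 0.05. Of 8 beta genes tested 3 were higher, the third being Itgb8 (log2 fold change 3.29 ± 0.71, adjusted p = 0.0143), the other partner of alphav in TGF-beta activation. Itgb8 was at 2.28 to 8.996 TPM in mSGc and at 1.48, 0.450 and 0.121 TPM in IMOK. The lower one was Itgb7, a leukocyte beta chain, at 2.37 TPM or less in every library and named after its values were seen. Itgb1 did not pass (-0.43 ± 0.25, adjusted p = 0.272), nor did Itgb5 (-0.07 ± 0.41, adjusted p = 0.934). Of 10 laminin genes 0 were higher and 2 lower, Lamc1 (-1.05 ± 0.31, adjusted p = 0.0481), the gamma chain of most other laminins, and Lama1, which reached 5.30 TPM in IMOK 1 and at most 0.269 TPM elsewhere and was also named after its values were seen. Of the other chains at 5 TPM in at least 2 libraries, Itga5, Lama5, Lamb1 and Lamb2 had adjusted p-values of 0.506, 0.438, 0.403 and 0.220.

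The partners of alpha6beta4 in the hemidesmosome were tested too, and 0 of 4 passed, with 1 at an unadjusted p under 0.05. Plec, the plakin that links beta4 to keratin, had a log2 fold change of 0.71 ± 0.26 (adjusted p = 0.0901), Dst of 0.27 ± 0.38 (0.678 adjusted), Col17a1, the transmembrane collagen, of 0.25 ± 0.32 (0.661 adjusted) and the tetraspanin Cd151 of 0.16 ± 0.22 (0.675 adjusted). Col17a1 was the most abundant of these in 8 of 9 libraries, all but mSGc at P2. Trp63, a transcription factor of basal epithelial cells, did not pass either (-0.44 ± 0.38, adjusted p = 0.473). Of 19 focal adhesion linkers 2 were higher, Tns4 (0.97, adjusted p = 0.0294) and the integrin activator talin, Tln1 (0.75, adjusted p = 0.0238), and 2 were lower, Parvb (adjusted p = 0.000319) and paxillin, Pxn (-0.86, adjusted p = 0.0197). Of 20 other ligands and matrix genes 0 were higher and 2 lower, the basement membrane gene Fras1 (-3.94, adjusted p = 0.00441) and Ltbp1 (-2.39, adjusted p = 0.0120), whose product holds latent TGF-beta in the matrix. Of 11 genes for laminin processing and other laminin receptors 1 was higher, the protease Tll1 (2.13, adjusted p = 0.0194), and 1 lower, the plasminogen activator Plat (-3.77, adjusted p = 0.00207). Of 10 genes that respond to TGF-beta 0 passed in edgeR, with 3 at an unadjusted p under 0.05. For scale, 14.9% of all 12853 genes tested passed in this comparison, and 3915 had an unadjusted p under 0.05.

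Progenitor and differentiating medium were compared within mSGc, in a fit that also held the passage number. None of the 8 genes passed in edgeR, beside 0.0241% of 12433 genes tested. The unadjusted p was under 0.05 for 2 of the 8, beside 1015 of the 12433 genes. Under DESeq2 1 was called (Lama3, adjusted p = 0.0193), and under limma's voom 0. The 4 progenitor libraries and the 2 differentiating libraries did not overlap in TPM for 1 of the 8 genes that was higher, Itga6, and for 1 that was lower, Lama3, beside 11.1% and 4.58% of the genes tested. With only 1 gene in each direction, these counts do not set the 8 genes apart from the rest. Marker lists moved with medium at the same passages. Luminal markers (Krt7, Krt8, Krt18, Krt19, Epcam and Cdh1) summed to 2468 TPM in progenitor and 11832 in differentiating medium at P10, and to 2652 and 7787 TPM at P25, although progenitor medium at P2 and P4 gave 14297 and 7482 TPM. Basal markers summed to 16976 and 12651 TPM at P10 and to 24075 and 12559 TPM at P25, with 14856 and 25580 TPM at P2 and P4. Of the 6 genes of either list 0 passed in edgeR for medium, with 3 luminal genes and 1 basal gene at an unadjusted p under 0.05, and the part of these markers in the Lama3 and Itga6 differences was not tested.

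Lama3 stood at 52.8, 45.8, 68.9 and 55.9 TPM in progenitor medium at P2, P4, P10 and P25, and at 37.5 and 31.4 TPM in differentiating medium at P10 and P25. Differences are given on the log2 scale of normalized CPM (read counts scaled to a common library size). Between differentiating and progenitor medium Lama3 differed by -1.03 at P10 and by -1.02 at P25. It was the only one of the 8 genes past a difference of 1 at either passage, beside 16.2% of the genes at P10 and 12.2% at P25. A count of 1 of 8 is near those shares. The fitted log2 fold change was -0.93 ± 0.24 (SE, adjusted p = 0.303). Itga6, whose values are given above, differed by 0.53 at P10 and 0.49 at P25, with a fitted log2 fold change of 0.54 ± 0.21 (adjusted p = 0.568). Lamb3 differed by -0.34 and -0.64 and Itga3 by -0.23 and -0.62 at P10 and P25, with fitted changes of -0.53 ± 0.24 (adjusted p = 0.642) and -0.56 ± 0.32 (adjusted p = 0.766). Itgb4, at -0.03 and -0.37, and Itgb6, at 0.53 and 0.08, had fitted changes of -0.09 ± 0.26 and 0.01 ± 0.44. A single library stands behind each medium at each passage, so the differences at P10 and at P25 have no replicate check of their own.

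**Figure D5:**
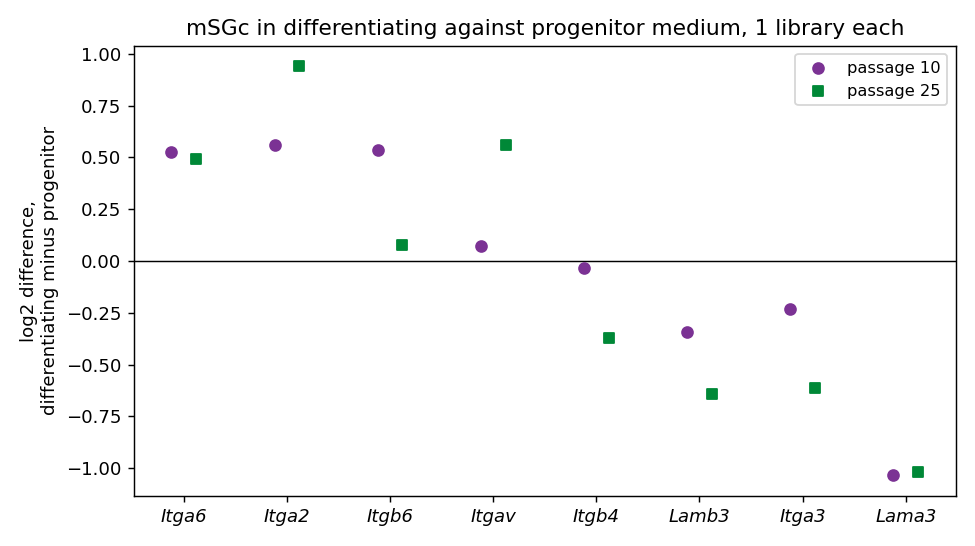
Difference in log2 normalized CPM between differentiating and progenitor medium (vertical axis) for each gene at P10 (circles) and P25 (squares), 1 library in each medium at each passage. Lama3 lies at -1.03 and -1.02, Itga6 at 0.53 and 0.49, and 7 of the 8 genes lie within 1 of zero at both passages.

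Passage was examined in the same fit as the change per doubling of the passage number. Again 0 of the 8 genes passed in edgeR, beside 0.491% of 12433 genes, and 0 were called by DESeq2 or voom. The unadjusted p was under 0.05 for 3 of the 8, beside 1645 of the 12433 genes. Itgav was at 88.2 TPM at P2 and at 31.7, 41.3 and 26.7 TPM at P4, P10 and P25 in progenitor medium (log2 change per doubling -0.31 ± 0.12, adjusted p = 0.340). Its high value was that of P2 alone, the library with the high sums of myoepithelial and fibroblast markers, whose part in it was not tested. Without P2 the change per doubling was -0.04. Itga2 fell from 33 reads at P2 to 4 at P25 in progenitor medium (-0.83 ± 0.26, adjusted p = 0.244), and Lamb3 had a change of 0.20 ± 0.08 (adjusted p = 0.370). Itgb6 had a change of -0.33 ± 0.15 (adjusted p = 0.404), with 29.4 and 21.7 TPM at P2 and P4 and no later library above 13.2 TPM. Among the other chains and partners Itga5, Itgb1, Itgb8 and Col17a1 did not pass either (adjusted p = 0.257, 0.326, 0.229 and 0.240). Of 22 ligands and matrix genes tested 2 were lower with passage, the basement membrane linker Nid1 (-2.98, adjusted p = 0.0383) and the matricellular gene Ctgf (-1.68, adjusted p = 0.0383), which is also on the list of genes that respond to TGF-beta.

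The 8 genes did not vary as 1 unit over the libraries. As a description over 9 libraries of 2 lines, with no test, Pearson's r of log2 normalized CPM was -0.36 for Itga6 and Itgb4, 0.22 for Lama3 and Lamb3, 0.20 for Itgav and Itgb6, 0.65 for Itgb4 and Itgb6 and -0.73 for Itga6 and Itgb6. Over the 6 mSGc libraries alone these were 0.29, 0.59, 0.45, -0.73 and -0.55, so the pairs Itga6 and Itgb4, and Itgb4 and Itgb6, changed sign between both sets. For each gene, profiles most similar to its own among 10496 genes over the 9 libraries were named by the highest r. These were Megf10 (0.942) and Aff1 (0.917) for Itga2, Sap30bp (0.974) and Gps1 (0.962) for Itga3, Asxl1 (0.977) and Crkl (0.964) for Itga6, and Atp7a (0.952) and Mex3c (0.929) for Itgav. They were St6galnac2 (0.974) and Csad (0.972) for Itgb4, Lxn (0.976) for Itgb6, Gfer (0.937) and Zfp82 (0.932) for Lama3, and Nek6 (0.943) and Zkscan17 (0.938) for Lamb3. No gene was named for more than 1 of the 8, and such r values, picked as the highest of many over few libraries, share the libraries' depth and line.

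The genes lie on 5 chromosomes of mm9, with Itga6 (chr2:71625140-71694815), Itgav (chr2:83564554-83647073) and Itgb6 (chr2:60436349-60560660) on chromosome 2 and Itga3 (chr11:94905796-94938028) and Itgb4 (chr11:115836039-115869725) on chromosome 11. Lamb3 lies at chr1:195128188-195170072, Itga2 at chr13:115626120-115722249 and Lama3 at chr18:12492533-12741521. Itga2, Itga3 and Itgb6 are on the minus strand and the others on the plus strand. The counted models merge 18 (Itgb6) to 75 (Lama3) exons, with exonic lengths of 4055 bases for Lamb3 to 10342 for Lama3. The 3 genes of chromosome 2 had log2 fold changes of -0.57, 0.04 and 1.73 against a median of -0.17 over the other tested genes of that chromosome.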

How the data were processed

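RNA-seq counts of 6 mSGc and 3 IMOK libraries were used. Per the labels, the authors aligned reads to mm9 with TopHat2 2.1.1 and Bowtie2 2.2.6 and deposited raw counts per gene from featureCounts 1.5.1, without normalization, and used DESeq2 1.12.4. Strandedness and the treatment of multiply mapped reads are not given in the sources used here. Of 23366 entries, 27 with names turned into dates (at most 0.243% of counts) were left out. Counts and the gene lengths of the deposited tables gave TPM. Differences were tested in R 4.3.3 with edgeR 4.0.16 (TMM, filterByExpr, quasi-likelihood test, Benjamini-Hochberg adjustment over all genes tested, threshold 0.05), and every adjusted p is from edgeR unless another tool is named. The SE was taken as the size of the log2 fold change over the root of its F statistic. The fits were all mSGc against IMOK, P10 mSGc against IMOK, and medium with log2 passage number within mSGc, where P2 and P4 have progenitor medium only. Alternatives were DESeq2 1.42.0, limma 3.58.1 voom, no filter, no TMM factors, a minimum of 10 counts per library, covariates, other passage codings and leaving out each library. Scripts were tested on simulated data. Log2 changes of 2 were recovered in 65.2% (all mSGc against IMOK), 51% (P10) and 53.5% (medium) of changed genes. For passage, changes of 1 per doubling were recovered in 82.5%. A gene that did not pass may therefore still differ. A total of 3 counts corresponds to 0.163 to 0.481 CPM, which covers counting error only.

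The 8 genes and all lists were chosen with earlier results of these data known. Genes named were the 8, other integrin and laminin chains at 5 TPM in at least 2 libraries, hemidesmosome partners, Trp63, up to 3 genes per direction of each other list that passed, and for each of the 8 the 2 genes of highest r (log2 CPM, prior count 2). For promoter windows, the gene start was moved to the outermost GENCODE transcript start within 200 bases. The fit without IMOK 1 and mSGc P2 together was added after seeing the data. Labels name progenitor and differentiating media, and their match to the study's serum-free and serum-containing media was not assumed. Some items that these rules cover are not reported here.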

Additional observations from a re-analysis of the deposited data

How the results depend on the processing

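Of the 8 genes, 2 passed in the comparison of all mSGc with IMOK. The number was 1 without TMM factors and 1 with at least 10 counts in every library, where Itgb4 was lost (adjusted p = 0.0877 and 0.0577), and 0 to 2 when 1 library was left out, with 0 without IMOK 2 or IMOK 3. It was 2 under DESeq2, voom and no filter. With covariates the number was also 2, but Itgb4 was lost (adjusted p = 0.0576) and Itga6 passed as lower (adjusted p = 0.0315). For P10 mSGc, where 0 passed, DESeq2 called 1, and leaving out 1 library gave 0 to 2. For medium, where 0 passed, DESeq2 called 1, and for passage every alternative gave 0. Differences of genes that did not pass changed sign as follows. Itgav against IMOK (0.04) became -0.056 without TMM factors, -0.034 under voom, -0.0085 with covariates, -0.23 without IMOK 1 and mSGc P2, and ran from -0.21 to 0.14 with 1 library left out. Itga2 ran from -1.34 to 0.19 against IMOK and from -1.26 to 0.21 for P10, Itga3 for P10 from -0.23 to 0.010 and Lama3 for P10 from -0.16 to 0.88. For medium, Itgb6 (0.01) became -0.026 under voom and ran from -0.34 to 0.57, and Itgb4 ran from -0.36 to 0.035. In log2 CPM after TMM, all 6 mSGc libraries exceeded IMOK for Itgb4, against 3 in TPM.

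Over all genes, 1915 passed against IMOK (847 higher, 1068 lower), 2899 under DESeq2, 659 higher and 1370 lower without TMM factors, 739 without IMOK 2 and 942 without IMOK 3. For P10 mSGc, 547 passed (304 higher, 243 lower), 2229 under DESeq2, 272 with at least 10 counts, 198 higher and 215 lower without TMM factors, 259 and 141 under voom, and 0 to 3409 with 1 library left out. For medium, 3 passed, 272 under DESeq2, 36 without a filter, 1 with at least 10 counts, 0 under voom, 109 from P10 and P25 alone with passage blocked, and 0 to 58 with 1 library left out. For passage, 61 passed, 699 under DESeq2, 161 without a filter, 3 with at least 10 counts, 126 with an untransformed passage number, 31 with progenitor medium only, and 0 to 330 with 1 library left out. The cause was not tested. The mSGc conditions have 1 library each, and Itga2 had only 4 to 85 reads.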
